A study of Homo sapiens with 18 samples.

Results

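The response of NRF2-edited ARPE-19 cells to hydrogen peroxide is described here at the level of mRNA. The labels give 6 such samples, 3 of the edited line treated with 0.2 mM H2O2 and 3 of the same line left untreated, out of 18 samples in the series. ARPE-19 is an established human cell line of retinal pigment epithelium (RPE). The edited cells, NRF2 ΔC, carry a CRISPR/Cas9 edit in exon 5 of NFE2L2, the gene of NRF2, and are 1 clone (C1). Its alleles carry stop codons at positions 503 and 505, as the series text numbers them, so that the C-terminal end of the protein is lost. Both lines received Cas9 by lentivirus, the control cells without a guide RNA. Their 3 untreated and 3 H2O2-treated samples are set beside the edited ones, and so are 3 edited samples treated with 1 mM NACET, the ethyl ester of N-acetylcysteine. The series text gives 40 h of culture in 10% serum and a treatment of 8 h, whereas the sample labels give 22 h in 1% serum and 2 h, and which of these holds was not settled here. Since the edited line is 1 clone, an effect of the edit and any other property of that clone cannot be told apart.

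NRF2 is a transcription factor that KEAP1 holds in the cytoplasm and targets for degradation. Oxidants and electrophiles modify KEAP1, and NRF2 then enters the nucleus, pairs with small MAF proteins and binds antioxidant response elements near genes of glutathione synthesis, thioredoxin recycling, NADPH supply and iron handling. H2O2 also acts on cells through other routes. It damages DNA, which activates p53, and it activates the integrated stress response, in which phosphorylated eIF2α favours translation of ATF4, a factor that raises genes of amino acid supply and cysteine metabolism.

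Between 19728049 and 25951154 reads were counted on genes in the 6 libraries, and 16111 to 16511 genes were detected in each. Replicate 1 of both edited groups lay furthest from the other replicates of its group, with a median absolute log2 deviation over genes of 0.225 untreated and 0.263 with H2O2, against 0.152 to 0.203 in the other 4 libraries. Same-numbered untreated and treated samples deviated from their group means together, so a fit with the replicate number as a block is given where it moves a list's count of calls in the edited line by over 1.5 times. Unless the block is named, errors, calls and p-values come from fits without it. The labels do not state that replicates were separate cultures, and p-values then measure only the spread between these samples, which may be technical. Of 20 markers of RPE, 8 stayed under 1 CPM (counts scaled to library size) in each of the 6 edited libraries. Among these 8 were CLDN19 with no read, the visual cycle enzyme RPE65 with 1 read in all and the retinoid carrier RLBP1 with 25. MITF and OTX2, transcription factors of the pigment epithelium, had 13939 and 19166 reads. Of 18 markers of fibroblasts, endothelium and leukocytes, 12 were under 1 CPM throughout, among them CD3E with no read. Others were well counted, PDGFRB, a receptor of mesenchymal cells, with 26109 reads, CD68 with 13061, COL1A1 with 8961 and FAP with 4304.

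H2O2 changed 1329 of 13543 genes tested in NRF2 ΔC cells. Of the gene lists used here, amino acid stress and p53 had the largest shares risen, and mitosis and hypoxia the largest shares fallen. Differentially expressed genes (DEGs) passed an adjusted p of 0.05 (edgeR, quasi-likelihood test, Benjamini-Hochberg) and moved by 0.6 or more on the log2 scale. Of all genes tested, 577 rose (4.26%) and 752 fell (5.55%), with a median log2 fold change of −0.01. At an unadjusted p under 0.05 the shares of all genes were 14.3% up and 15.4% down in NRF2 ΔC cells and 15.6% up and 15.1% down in control cells, against which the members' counts at that p are to be read. With the replicate block 983 genes rose (7.26%) and 1555 fell (11.5%), and these included 573 of the 577 and 750 of the 752. The number of DEGs depended on single libraries and was 328 without untreated replicate 2, 476 without untreated replicate 3, 275 without H2O2 replicate 2, 697 without H2O2 replicate 3 and 2582 without H2O2 replicate 1. In control cells 405 of 13691 genes rose (2.96%) and 462 fell (3.37%). Of the edited cells' DEGs, 265 rose in both lines and 258 fell in both, and 0 moved in opposite directions. A call in 1 line that is missing in the other is not a test of the difference. That test was made over all genes and is given below for some of the lists. Among 25 gene lists with 558 distinct genes, 504 members could be tested, of which 84 rose and 78 fell in NRF2 ΔC cells. The lists were chosen with earlier results of these data known, so their shares describe the response and are not independent evidence of it. All CPM below share 1 scale over the 12 H2O2 and untreated samples, the error after ± is the standard error of the log2 fold change, and every group had 3 samples.

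**Figure D1:**
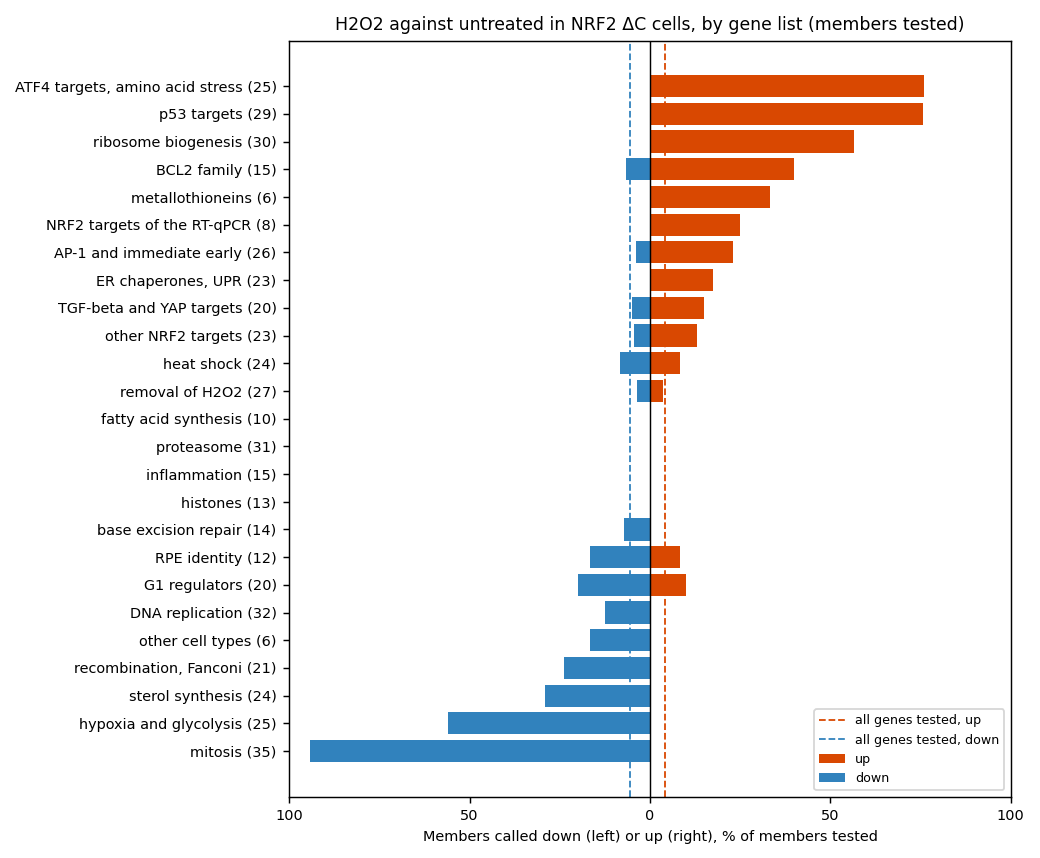
Share of the tested members of each of the 25 gene lists that rose (right) or fell (left) with H2O2 in NRF2 ΔC cells, in percent, with the shares over all 13543 genes (4.26% and 5.55%) as dashed lines. The mitosis list stands at 94.3% fallen, and the ATF4 and p53 lists at 76.0% and 75.9% risen.

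NFE2L2 itself (GRCh37 chr2:178083395-178257484) was measured at 124, 126 and 128 CPM in untreated edited cells and at 142, 149 and 125 CPM with H2O2. These ranges overlapped, and the log2 fold change was 0.14 ± 0.12 (edgeR adjusted p = 0.49). In control cells NFE2L2 stood at 121 to 127 CPM untreated and 128 to 138 CPM with H2O2. An edit that truncates the protein need not change the mRNA level, so these values do not check the genotype. NFE2L2 overlaps AGPS and HNRNPA3, and reads on shared bases may be lost or wrongly assigned. KEAP1 ran at 65.2, 90.1 and 80.8 CPM and then 71.3, 102 and 107 CPM, a log2 fold change of 0.25 ± 0.19 (edgeR adjusted p = 0.409).

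Among the 8 NRF2 targets with RT-qPCR assays, SLC7A11 and HMOX1 rose with H2O2 in NRF2 ΔC cells and the other 6 had log2 fold changes between 0.06 and 0.52 that did not pass. The study chose these genes, so their count is not independent evidence of a direction. The median log2 fold change of the 8 was 0.23, against 1.16 in control cells, where 5 rose. Each of the 8 changed less in the edited than in the control cells.

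SLC7A11 (chr4:139085251-139163503), the cystine importer of system xc-, ran at 11.5, 18.5 and 14.3 CPM untreated and at 88.7, 106 and 62.3 CPM with H2O2. The groups were well apart, with a log2 fold change of 2.53 ± 0.24 (edgeR adjusted p = 0.00155). In control cells the fold change was 2.62 ± 0.23, from 24.4, 36.8 and 31 CPM to 146, 251 and 162 CPM, and the difference between the lines was −0.07 ± 0.36 on the log2 scale. HMOX1 (chr22:35776354-35790207), the heme oxygenase that releases iron and biliverdin, rose from 39.0, 54.0 and 45.5 CPM to 109, 241 and 189 CPM, by 1.96 ± 0.27 (edgeR adjusted p = 0.00537). Treated replicate 1 was the lowest of the treated samples and still above every untreated one. In control cells HMOX1 rose by 2.80 ± 0.25.

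NQO1 (chr16:69740899-69760571), the quinone reductase most used as a readout of NRF2, had the largest difference between the lines among the 8, −1.62 ± 0.35 on the log2 scale. Edited cells had 15.6, 11.3 and 15.1 CPM untreated and 16.8, 14.4 and 16.7 CPM with H2O2, a log2 fold change of 0.19 ± 0.18 (edgeR adjusted p = 0.501). Control cells had 168, 338 and 181 CPM untreated and 743, 990 and 684 CPM with H2O2, a rise of 1.83 ± 0.27. The groups overlapped in the edited line and were apart in the control line.

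GCLM and GCLC make the modifier and catalytic subunits of the enzyme that starts glutathione synthesis. GCLM went from 11.0, 10.6 and 12.0 CPM to 17.4, 17.2 and 13.7 CPM without overlap, at a log2 fold change of 0.52 ± 0.16 that missed the threshold (edgeR adjusted p = 0.0744), and rose by 1.58 ± 0.25 in control cells. GCLC, the glutathione reductase GSR, thioredoxin TXN and the glutathione transferase MGST1 had fold changes of 0.17, 0.07, 0.28 and 0.06 on the log2 scale in edited cells, against 0.52, 0.75, 0.59 and 0.60 in control cells.

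The test of the difference between the lines was made for all 13987 genes over 12 samples, and 3 genes (0.0214%) were called, while 5.76% had an unadjusted p under 0.05. None of the 8 targets was among them in edgeR, 4 had an unadjusted p under 0.05, and DESeq2 called 2. With the replicate number as a block within each line 967 genes (6.91%) were called, and NQO1, HMOX1, GSR, GCLM and MGST1 then had a smaller change in the edited line.

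**Figure D2:**
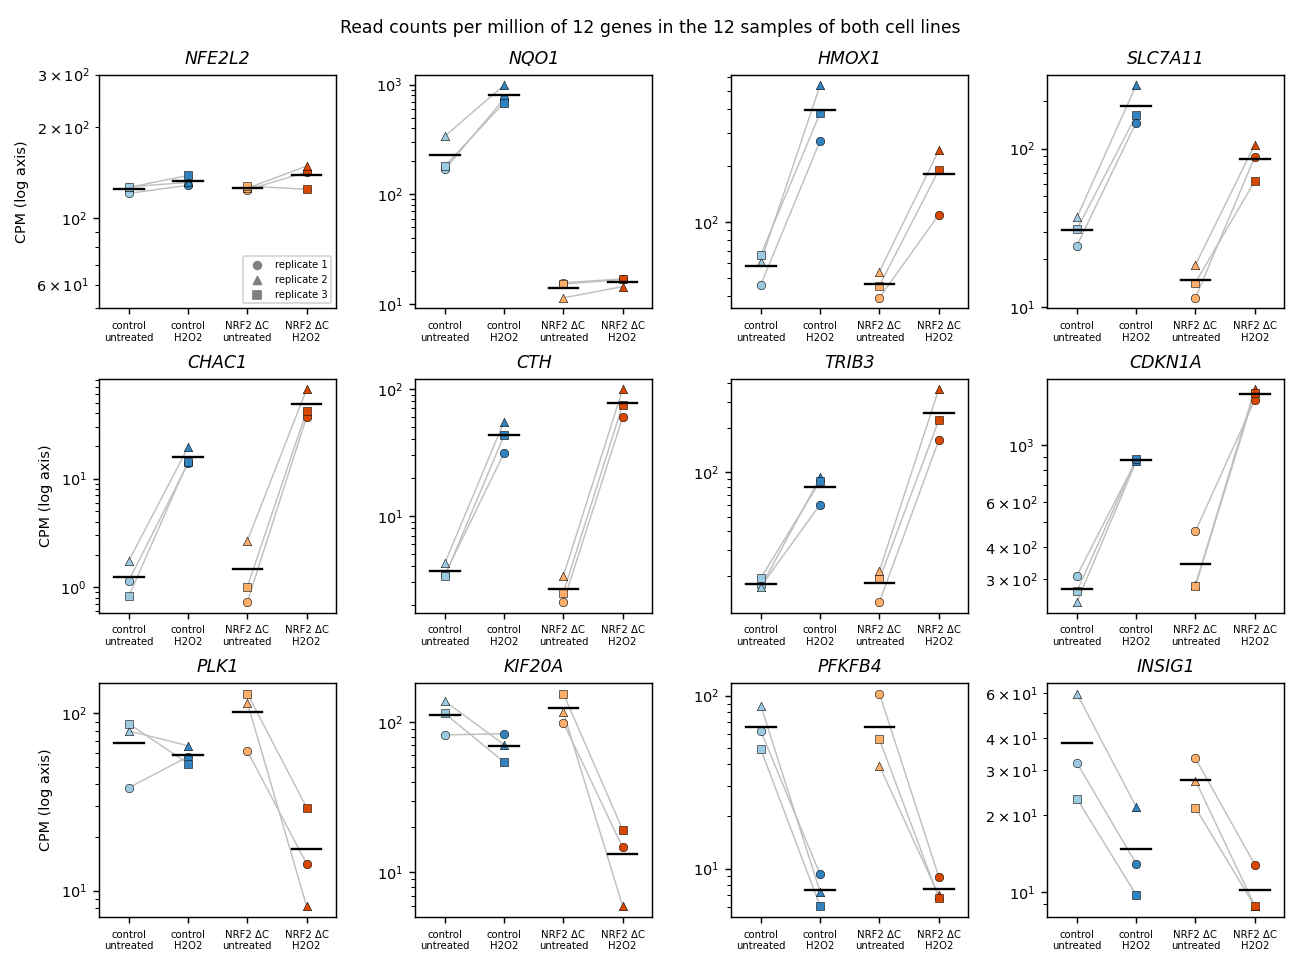
Level of 12 genes in CPM (log axis) in each untreated and H2O2-treated sample of the control and NRF2 ΔC lines, with bars for group means, symbols for replicate numbers and lines joining samples of the same number. NQO1 stays between 11.3 and 16.8 CPM in the edited line, while CHAC1, CTH and TRIB3 rise in both lines and PLK1 and KIF20A fall apart from their untreated level in the edited line.

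The antioxidant response element was searched as TGACNNNGC on both strands of the promoter windows of RefSeq, which run from 250 bases before to 50 bases after a start. It occurred in 13.3% of 35116 windows, in 1 of the 5 windows found for the RT-qPCR targets and in 7 of 23 for the other NRF2 targets. Among those 7 is the window of ME1, a gene that rose in edited cells. These letters were not particular to NRF2 targets. They were also found in 8 of 20 windows of the ATF4 targets and in 4 of 6 windows of the metallothionein genes. The windows of GCLM and TXNRD1 are shown because both genes rose in control cells and did not pass in edited cells, and capitals mark the element, here on the opposite strand (GRCh38.p14, GCLM chr1:93909436-93909484, minus strand, and TXNRD1 chr12:104215761-104215790, plus strand).
GCLM: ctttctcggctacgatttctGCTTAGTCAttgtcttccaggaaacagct
TXNRD1: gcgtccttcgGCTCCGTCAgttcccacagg

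Of 23 tested members of a wider list of 28 NRF2 targets, 3 rose and 1 fell in NRF2 ΔC cells, with a median log2 fold change of 0.17, whereas 11 of 24 rose in control cells with a median of 0.50. The change was smaller in the edited line for 20 of the 23. In the test of that difference edgeR called 0, 10 had an unadjusted p under 0.05, DESeq2 called 2, and the blocked fit called 9, each lower in the edited line. Without untreated replicate 2, untreated replicate 3 or H2O2 replicate 2 none of the 23 was called up, and without H2O2 replicate 3 it was 1. TXNRD1, the cytosolic thioredoxin reductase, ran at 554, 606 and 644 CPM and then at 629, 663 and 640 CPM, which overlap, with a log2 fold change of 0.10 ± 0.13 (edgeR adjusted p = 0.637). In control cells it rose by 1.05 ± 0.13, from 913 to 1107 CPM untreated to 1868 to 2394 CPM. MAFG, a small MAF partner of NRF2, rose by 0.77 ± 0.17, from 58.9 to 79.5 CPM up to 99.9 to 138 CPM, close to its 0.84 in control cells. The malic enzyme ME1, a source of NADPH, rose by 0.75 ± 0.15 from 20.8, 16.9 and 18.0 CPM to 32.7, 32.0 and 28.9 CPM. Sulfiredoxin SRXN1, which restores overoxidised peroxiredoxins, rose by 0.60 ± 0.16 from 79.1, 100 and 110 CPM to 131, 164 and 145 CPM.

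The fall was in AKR1C3, an aldo-keto reductase, from 5.80, 2.87 and 3.45 CPM to 1.20, 0.554 and 1.58 CPM, by 1.84 ± 0.40 on the log2 scale (edgeR adjusted p = 0.0245). It was not called without untreated replicate 2, untreated replicate 3 or H2O2 replicate 2. In control cells its fold change was 0.48 ± 0.18 and did not pass. AKR1C genes are near-identical, reads shared between them were not counted, and AKR1C1 and AKR1C2 were not tested, so this value is uncertain. The ferritin chains FTH1 and FTL, which also have many near copies, had fold changes of 0.33 ± 0.15 and 0.23 ± 0.17. Of 27 enzymes that remove H2O2 or repair oxidised thiols, SRXN1 was the 1 that rose and glutaredoxin GLRX the 1 that fell (−1.06 ± 0.27). Neither was called when any 1 library other than H2O2 replicate 1 was left out, and SRXN1 was not called under upper-quartile scaling (0.59). Catalase, CAT, which breaks H2O2 down directly, ran at 86.2 to 111 CPM untreated and 54.7 to 75.3 CPM with H2O2, without overlap but above the threshold (edgeR adjusted p = 0.0548).

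ATF4 targets of the integrated stress response held the 2 largest rises in NRF2 ΔC cells, CHAC1 and CTH, and 19 of 25 rose while 0 fell. The median log2 fold change was 1.54, against 0.87 in control cells, where 17 rose. The count stayed between 15 and 22 when any 1 of the 6 libraries was left out and was 22 with the block. In edited cells 20 of the 25 had treated samples that all lay above the untreated ones, against 16.5% of all genes tested. Treated with NACET, edited cells had 1 member that rose and 1 that fell, against 0.458% and 0.93% of 13542 genes tested, a comparison that shares the untreated samples.

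CHAC1 (chr15:41245160-41248710), which degrades glutathione, ran at 0.731, 2.68 and 1.01 CPM untreated and at 36.9, 66.2 and 41.8 CPM with H2O2. All treated samples were far above the untreated ones, and the log2 fold change was 4.99 ± 0.44 (edgeR adjusted p = 0.00123). Control cells went from 1.15, 1.75 and 0.825 CPM to 13.8, 19.4 and 14.4 CPM, by 3.69 ± 0.26. CTH (chr1:70876901-70905534), cystathionine γ-lyase, which makes cysteine from cystathionine, rose by 4.86 ± 0.26 from 2.1, 3.38 and 2.48 CPM to 59.7, 99 and 74.9 CPM (edgeR adjusted p = 0.000227). TRIB3 (chr20:343479-378203), a pseudokinase that restrains ATF4, rose by 3.81 ± 0.32 from 13.3, 21.6 and 18.9 CPM to 165, 365 and 226 CPM, and by 2.20 ± 0.16 in control cells. In each of these genes treated replicate 2 was the highest sample.

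ASNS (chr7:97480989-97501854), asparagine synthetase, rose by 3.42 ± 0.21 from 31.6, 44.9 and 48.6 CPM to 361, 502 and 475 CPM. The serine pathway rose with it, PSAT1 by 2.85 ± 0.23, PHGDH by 1.32 ± 0.33 and PSPH by 0.91 ± 0.17, and so did the mitochondrial one-carbon enzymes MTHFD2 (2.58 ± 0.24) and SHMT2 (1.16 ± 0.28). Amino acid carriers rose as well, the shared heavy chain SLC3A2 by 1.54 ± 0.25, the large neutral carrier SLC7A5 by 1.35 ± 0.16 and the cationic carrier SLC7A1 by 1.25 ± 0.16. SESN2, a sestrin that is a target of both ATF4 and p53, rose by 2.89 ± 0.27 from 28.5, 27.3 and 25.6 CPM to 125, 281 and 200 CPM.

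ATF4 mRNA itself rose by 1.67 ± 0.21 from 181, 229 and 236 CPM to 496, 832 and 736 CPM (edgeR adjusted p = 0.00386). DDIT3, which encodes CHOP, a factor of prolonged stress, went from 28.3, 20.9 and 26.3 CPM to 54.8, 129 and 100 CPM, by 1.91 ± 0.29, whereas its fold change in control cells was 0.49 ± 0.16 and did not pass. Of the 6 members that were not called, CEBPB (0.82), ATF5 (0.72) and PPP1R15A (0.71) were called up with the block, and DDIT4, VLDLR and ALDH1L2 stood at 0.35, −0.16 and −0.09. In the test between the lines 0 of 25 were called by edgeR, 12 had an unadjusted p under 0.05 and DESeq2 called 2, while the blocked fit called 15, each with the larger rise in edited cells.

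The C/EBP-ATF element, searched as TGATGNAA on both strands, was found in 4 of 20 promoter windows of these genes against 3.62% of all windows. The 4 are printed with the element in capitals because they belong to genes that rose (GRCh38.p14, CHAC1 chr15:40953236-40953295, plus strand, ASNS chr7:97872443-97872502, minus strand, SLC3A2 chr11:62881715-62881744, plus strand, SLC7A1 chr13:29595663-29595692, minus strand). CHAC1 and SLC3A2 carry it on the opposite strand.
CHAC1: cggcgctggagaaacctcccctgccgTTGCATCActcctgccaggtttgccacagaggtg
ASNS: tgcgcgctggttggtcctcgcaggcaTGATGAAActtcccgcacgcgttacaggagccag
SLC3A2: tgaagtaatgtgcaggactccTTACATCAg
SLC7A1: gggcgcactgcTGATGAAAcctggcgccgg

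Targets of p53 rose nearly as often. Of 29 tested members 22 rose and 0 fell in NRF2 ΔC cells, all 29 had a positive fold change, and the median was 1.10 on the log2 scale, against 18 risen and a median of 0.74 in control cells. The count was 16 to 25 when any 1 library was left out. With NACET 1 rose and 2 fell in edited cells.

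CDKN1A (chr6:36644237-36655114), the p21 inhibitor of cyclin-dependent kinases, ran at 462, 285 and 282 CPM untreated and at 1505, 1655 and 1600 CPM with H2O2. Untreated replicate 1 was the highest of its group, the treated samples were far above it, and the log2 fold change was 2.21 ± 0.21 (edgeR adjusted p = 0.0015). In control cells CDKN1A rose by 1.69 ± 0.11, from 244 to 310 CPM up to 865 to 884 CPM. MDM2, the ubiquitin ligase that degrades p53, rose by 1.59 ± 0.20 from 188, 144 and 144 CPM to 439, 608 and 383 CPM. FDXR, mitochondrial ferredoxin reductase, rose by 1.86 ± 0.20 from 77.5, 82.5 and 81.2 CPM to 202, 335 and 342 CPM. PLK3, a stress kinase that overlaps DYNLT4, rose by 1.66 ± 0.15, and the antiproliferative factor BTG2 by 1.65 ± 0.17.

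GDF15 (chr19:18485541-18499986), a secreted stress cytokine, was barely expressed untreated, with 2, 10 and 10 reads, and had 58, 141 and 104 reads with H2O2. The ratio of reads per library size was 14.98, with a 95% exact binomial interval of 9.715 to 24.27 that covers counting error only, and edgeR fitted 3.88 ± 0.50 on the log2 scale (adjusted p = 0.00403). The death genes BBC3 (PUMA) and PMAIP1 (NOXA) rose by 1.53 ± 0.22 and 1.5 ± 0.36. Repair and damage genes rose less, among them DDB2 (1.37), XPC (1.10) and GADD45A (0.77). BAX (0.59), POLH (0.51), TP53INP1 (0.54), EDA2R (0.46), ZMAT3 (0.39), CCNG1 (0.24) and PLK2 (0.22) did not pass. In the test between the lines 0 of 29 were called by edgeR, 11 had an unadjusted p under 0.05, DESeq2 called 1, and the blocked fit called 9, each with the larger rise in edited cells. No window of the 25 found held the p53 element by its consensus, which occurs in 0.0285% of all windows.

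Genes of mitosis had the largest share of called members of the 25 lists. Of 35 members 33 fell and 0 rose, and the median log2 fold change was −1.61, with a range from −3.22 to −0.61. In control cells 0 of 35 fell in edgeR, 1 had an unadjusted p under 0.05, 1 fell with the block, and the median was −0.06. The count of 33 dropped to 15 without untreated replicate 2 and to 17 without untreated replicate 3 or H2O2 replicate 2, and the block gave 34. In bulk RNA fewer cells in mitosis and less mRNA per cell cannot be told apart.

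KIF20A (chr5:137514408-137523412), a kinesin of cytokinesis, ran at 99, 116 and 155 CPM untreated and at 14.6, 5.94 and 19.2 CPM with H2O2. The groups were far apart, and the log2 fold change was −3.22 ± 0.38 (edgeR adjusted p = 0.00302). In control cells KIF20A stood at 82.1, 138 and 114 CPM and at 83.5, 70.6 and 54.0 CPM, which overlap. PLK1 (chr16:23688977-23701688), the polo kinase of mitotic entry, fell by 2.56 ± 0.45 from 61.3, 115 and 129 CPM to 14.2, 8.16 and 29.4 CPM, whereas control cells had 38.0, 79.7 and 87.5 CPM untreated and 57.1, 65.7 and 52.1 CPM with H2O2. Both genes overlap others in the annotation, KIF20A with BRD8 and CDC23 and PLK1 with ERN2, and the counting did not use strand.

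Spindle genes moved alike, HMMR by −2.77 ± 0.33 and DLGAP5 by −2.52 ± 0.34. CDC20, which activates the anaphase-promoting complex, fell by 2.42 ± 0.38 from 64.0, 104 and 124 CPM to 12.5, 12.2 and 29.9 CPM. Cyclin B1, CCNB1, ran at 113, 148 and 215 CPM and then at 37.6, 27.8 and 60.6 CPM, and its kinase CDK1 at 64.7, 90.1 and 127 CPM and then at 34.2, 30.7 and 50.1 CPM. Untreated replicate 3 was the highest and treated replicate 2 the lowest sample in each of these 3 genes. Topoisomerase TOP2A (−2.0), the checkpoint kinase BUB1 (−2.27) and the centromere motor CENPE (−2.26) fell as well. AURKB, the kinase of the chromosomal passenger complex, had −1.25 ± 0.41 (edgeR adjusted p = 0.0803) and was called with the block, and securin PTTG1 had −0.61 ± 0.28 (edgeR adjusted p = 0.184).

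As a mean over the 35 genes of log2(CPM + 1), edited cells had levels of 5.84, 6.24 and 6.68 untreated and 4.43, 4.05 and 5.01 with H2O2. The change within each replicate number was −1.42, −2.19 and −1.67 in the edited line and 0.46, −0.27 and −0.42 in the control line, where untreated replicate 1 was low at 5.32. All 35 genes changed further down in edited than in control cells. In edgeR's test of that difference 0 of 35 were called, 32 had an unadjusted p under 0.05, DESeq2 called 20 and the blocked fit called 35.

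**Figure D3:**
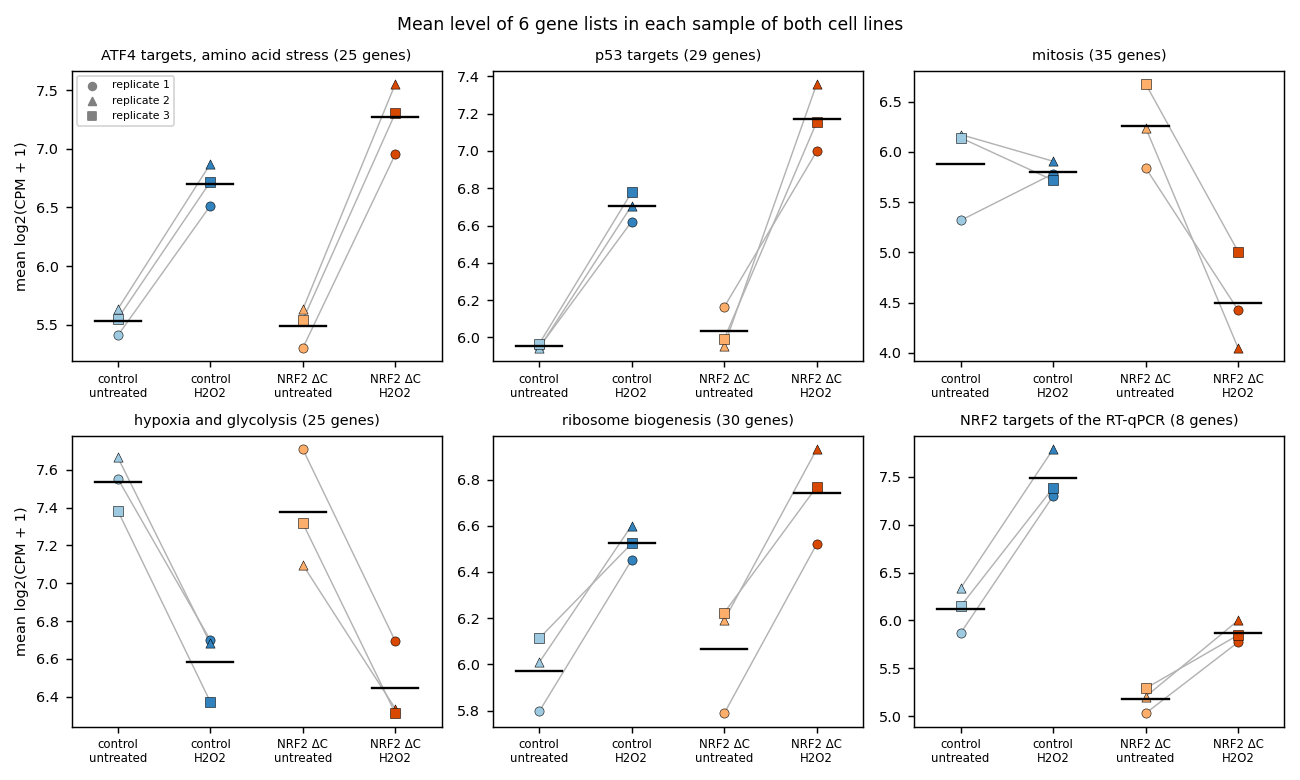
Mean log2(CPM + 1) of the tested members of 6 gene lists in each untreated and H2O2-treated sample of the control and NRF2 ΔC lines. The mitosis list drops from 5.84 to 6.68 down to 4.05 to 5.01 in the edited line, and the ATF4 and p53 lists rise in both lines.

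Mitotic promoters are known for a CCAAT box upstream of a cell cycle homology region, the letters TTTGAA close to the start. On both strands TTTGAA was found in 21 of 30 promoter windows of the list (70.0%) against 15.2% of all windows, 16 of the 21 within 50 bases of the start. CCAAT was found in 23 of 30 (76.7%) against 34.6%, and both in 17 of 30 (56.7%) against 5.9%. CCAAT by itself was not particular to the mitosis list. Its share was 83.3% in the cholesterol list, 81.8% in the endoplasmic reticulum list and 78.6% in the histone list. The count of both did not require an order or spacing, so it does not measure the arrangement named above. The order differed between windows. In PLK1 CCAAT began at −73 from the start and TTTGAA at −29. In CDC20 TTTGAA came first, at −65, with CCAAT downstream at −55, and CDK1 had the same order (−161 and −150). A match of one pattern can share a base with a match of the other, as in CDCA8 of the 30 windows and in 0.12% of all windows. Printed below in capitals is TTTGAA in 5 genes that fell, HMMR holding it in tandem (GRCh38.p14, PLK1 chr16:23678848-23678877, CDC20 chr1:43358904-43358933, HMMR chr5:163460598-163460627 and CCNB2 chr15:59105105-59105134 on the plus strand, DLGAP5 chr14:55191565-55191594 on the minus strand).
PLK1: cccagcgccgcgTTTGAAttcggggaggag
CDC20: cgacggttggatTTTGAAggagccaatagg
HMMR: gggagaTTTGAATTTGAAaccggtagggag
CCNB2: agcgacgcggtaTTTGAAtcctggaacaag
DLGAP5: cggtgcggcaagTTTGAAtttcgtggaggc
Capitals mark the CCAAT box in the window of KIF20A, where it lies on the opposite strand, and of PLK1 (chr5:138179033-138179061 and chr16:23678804-23678832, plus strand).
KIF20A: cttccctatctgATTGGccgaacgaacgc
PLK1: aaatccccgcggCCAATcagtggcgcgca

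Genes of earlier cell cycle steps moved less. Among 20 tested regulators of G1, CDKN1A and the repressor E2F7 (1.05 ± 0.20) rose. The kinase inhibitors CDKN2C (−1.66 ± 0.29), CDKN2D (−1.29 ± 0.25) and CDKN1B (−0.65 ± 0.12) and the pocket protein RBL1 (−0.78 ± 0.21) fell. Cyclin D1, CCND1, ran at 387 to 457 CPM untreated and 562 to 620 CPM with H2O2, apart but not past the threshold (edgeR adjusted p = 0.0572). With the block 8 of the 20 fell, without untreated replicate 2 or H2O2 replicate 2 none fell, and 2 fell without untreated replicate 3 or H2O2 replicate 3. E2F7 was not called without untreated replicate 2 or H2O2 replicate 2.

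Of 32 replication genes 4 fell, 0 rose and 28 had a negative fold change, with a median of −0.46 against −0.10 in control cells, where 0 were called and the block called 1 up and 2 down. The 4 were the polymerase subunit POLE2 (−1.36 ± 0.30), the helicase subunits MCM6 (−1.17 ± 0.31) and MCM4 (−1.03 ± 0.27) and GINS1 (−1.0 ± 0.27), which shares bases with NINL. The groups of MCM4 overlapped. MCM6 went from 63.7, 120 and 159 CPM to 38.1, 52.9 and 61.2 CPM, with replicate 1 lowest in both groups. The count was 11 with the block, 12 without untreated replicate 1, 1 without H2O2 replicate 3 and 0 without untreated replicate 2, untreated replicate 3 or H2O2 replicate 2. PCNA, the sliding clamp and also a p53 target, ran the other way at 0.60 ± 0.28 (edgeR adjusted p = 0.197) and was called up with the block. Between the lines edgeR and DESeq2 called a difference for 0 of the 32, and 3 had an unadjusted p under 0.05. The blocked fit called 10, each lower in the edited line.

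Among 21 genes of homologous recombination and the Fanconi pathway 5 fell and 0 rose, with a median of −0.62 against 0.05 in control cells. The helicase BRIP1 fell by 1.3 ± 0.22 from 25.1, 35.7 and 38.6 CPM to 14.5, 10.2 and 15.6 CPM. BRCA1 fell by 1.03 ± 0.22 from 40.3, 54.5 and 65.6 CPM to 26.2, 20.3 and 32.3 CPM, and its partner BARD1 by 0.96 ± 0.22. BRCA2 fell by 1.05 ± 0.20. The count was 12 with the block, 10 without untreated replicate 1, 1 without untreated replicate 3 and 0 without untreated replicate 2 or H2O2 replicate 2. The difference between the lines was called for 0 of the 21 by edgeR and DESeq2, with 7 at an unadjusted p under 0.05. With the block it was called for 14, each lower in the edited line. Of 14 base excision repair genes, which mend oxidised bases, NEIL3 fell (−1.24 ± 0.31, edgeR adjusted p = 0.0385) and 0 rose, with 2 at an unadjusted p under 0.05 in the upward direction and 0 in DESeq2. NEIL3 was not called without untreated replicate 2, untreated replicate 3 or H2O2 replicate 2, and both the block and DESeq2 called 2 of the 14 down. Among 13 histone genes tested 0 were called by edgeR or DESeq2 and 0 had an unadjusted p under 0.05, while the block called 1 up. HIST1H2BK and H1F0, the 2 most counted, had fold changes of 0.33 ± 0.25 and 0.32 ± 0.17.

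The 3 genes called in edgeR's test between the lines over all genes were DEPDC1, SGOL2 and INHBE. DEPDC1, a gene of mitotic progression (chr1:68939835-68962904), fell from 35.8, 49.2 and 52.4 CPM to 11.8, 8.77 and 12.7 CPM in edited cells and ran at 23.6, 37.1 and 36.8 CPM and at 39.1, 36.3 and 32.9 CPM in control cells. The change in the edited line minus that in the control line was −2.20 ± 0.29 (edgeR adjusted p = 0.0183). SGOL2 (chr2:201374731-201448819), the shugoshin that protects centromeric cohesion and overlaps KCTD18, fell from 28.5, 33.8 and 31.8 CPM to 7.84, 5.39 and 6.18 CPM, against 14.8, 24.4 and 22.3 CPM and 21.1, 19.5 and 16.2 CPM in control cells. Its difference between the lines was −2.16 ± 0.27 (edgeR adjusted p = 0.0183). INHBE (chr12:57846106-57853063), the inhibin βE subunit, had 2 reads in each untreated edited library and 46, 65 and 53 with H2O2, a ratio of 29.73 (95% exact binomial interval 13.37 to 82.21). In control cells it stood at 0.353, 0.438 and 0.321 CPM untreated and 0.409, 0.677 and 0.488 CPM with H2O2 and was too low to be tested there. Its difference between the lines was 4.27 ± 0.52 (edgeR adjusted p = 0.0183). The gene passed the filter on low counts through the treated edited samples, in which it was high. Its call is therefore not independent support for a difference.

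**Figure D4:**
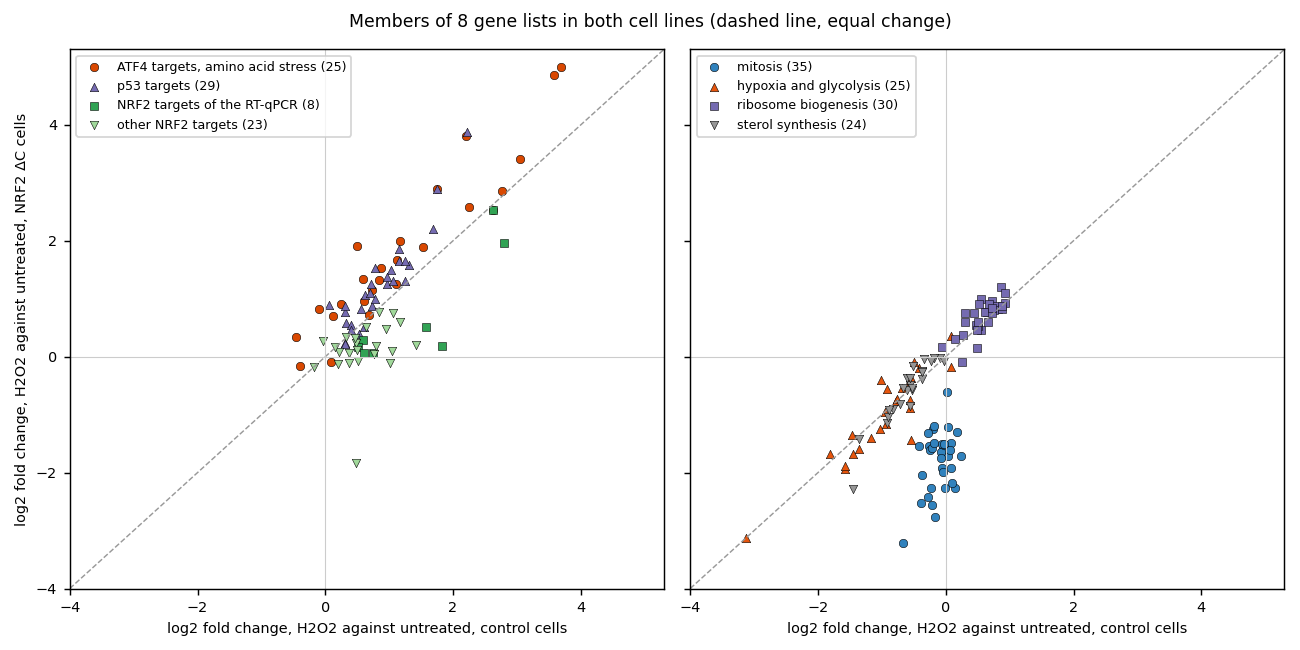
Log2 fold change with H2O2 in NRF2 ΔC cells against that in control cells for the members of 8 gene lists in 2 panels, with a dashed line of equal change. Mitosis genes spread from −3.22 to −0.61 in the edited line around a median of −0.06 in the control line, NRF2 targets lie mostly under the line of equal change, and hypoxia genes lie along it.

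Genes of hypoxia and glycolysis fell in both lines. In NRF2 ΔC cells 14 of 25 fell, 0 rose and 24 had a negative fold change, with a median of −0.88, and in control cells 16 fell with a median of −0.92. In edited cells 8 fell without H2O2 replicate 2. With NACET 1 of the 25 fell in the edited line. PFKFB4 (chr3:48555117-48599448), which makes and breaks fructose 2,6-bisphosphate, ran at 103, 39.3 and 55.8 CPM untreated and at 8.99, 7.00 and 6.78 CPM with H2O2. Its log2 fold change was −3.12 ± 0.34 (edgeR adjusted p = 0.00248) and was −3.13 ± 0.24 in control cells. PFKFB4 overlaps UCN2 on the same strand. Lactate dehydrogenase LDHA fell by 1.41 ± 0.16 from 2082, 1671 and 2208 CPM to 837, 706 and 708 CPM. PFKFB3 (−1.88 ± 0.28), the pyruvate dehydrogenase kinase PDK1 (−1.69 ± 0.29), NDRG1 (−1.68 ± 0.20), ENO2 (−1.59 ± 0.20) and the mitophagy receptor BNIP3 (−1.36 ± 0.14) fell too. ANKRD37, which overlaps UFSP2, fell by 1.93 ± 0.27. Not every target of hypoxia-inducible factors moved so. VEGFA ran at 203, 118 and 105 CPM and 213, 182 and 154 CPM (0.36 ± 0.25), and CA9 had −0.41 ± 0.34 in edited cells while it fell by 1.02 ± 0.17 in control cells. In the test between the lines 0 of 25 were called by edgeR, 0 had an unadjusted p under 0.05, DESeq2 called 0 and the blocked fit called 2.

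Genes of cholesterol synthesis and uptake fell in part. Of 24 tested 7 fell and 0 rose in NRF2 ΔC cells, all 24 had a negative fold change, and the median was −0.51, against 4 fallen (10 with the block) and −0.56 in control cells. The count was 4 without untreated replicate 2 or 3 and 3 without H2O2 replicate 2. No member had an unadjusted p under 0.05 in edgeR's test between the lines. DESeq2 called 0 there and the blocked fit 1. INSIG1 (chr7:155089486-155101945), which holds SREBP in the endoplasmic reticulum, ran at 33.3, 27.3 and 21.3 CPM and then at 12.8, 8.87 and 8.82 CPM, a fold change of −1.43 ± 0.22 (edgeR adjusted p = 0.00761). It was a DEG in control cells as well, at −1.35 ± 0.38. HMG-CoA synthase HMGCS1 fell by 1.14 ± 0.26, ACAT2 by 0.92 ± 0.20 and lanosterol synthase LSS by 0.91 ± 0.15. ACAT2 overlaps TCP1, and reads on shared bases may be lost or wrongly assigned. Of 10 fatty acid genes 0 were called by edgeR or DESeq2 and 2 had an unadjusted p under 0.05, both downward, while 1 fell with the block and 1 without H2O2 replicate 1. Fatty acid synthase FASN and ATP citrate lyase ACLY had fold changes of −0.15 ± 0.20 and 0.01 ± 0.12.

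Ribosome biogenesis genes rose in both lines, 17 of 30 with 0 fallen and a median of 0.76 in NRF2 ΔC cells and 15 with a median of 0.58 in control cells. In edited cells 29 of 30 had a positive fold change and 20 had treated samples all above the untreated ones, against the 16.5% of all genes. The count of 17 was 2 without untreated replicate 2 or H2O2 replicate 2, 8 without untreated replicate 3 and 6 without H2O2 replicate 3. A difference between the lines was called for 0 of the 30 by edgeR and DESeq2 and for 2 with the block. At an unadjusted p under 0.05 edgeR had 1. RRP12, needed for export of preribosomes, ran at 38.2, 70.3 and 57.8 CPM and then at 93.2, 167 and 125 CPM, a rise of 1.21 ± 0.26 (edgeR adjusted p = 0.0234). PNO1 (1.10 ± 0.18), RRP9 (1.00 ± 0.27), NOP16 (0.97 ± 0.22, overlapping ARL10 and HIGD2A) and NOP2 (0.93 ± 0.18) followed. Of 31 proteasome subunits 0 were called by edgeR or DESeq2, and 2 rose without H2O2 replicate 1. All 31 had a positive fold change, between 0.10 and 0.52, and 12 had an unadjusted p under 0.05, against 14.3% of all genes in that direction. PSMD2 and PSMB4 stood at 0.10 ± 0.21 and 0.31 ± 0.16.

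Among 26 immediate early and AP-1 genes 6 rose and 1 fell, with a median of 0.42 against 0.07 in control cells. ATF3, a stress factor of the ATF family, rose by 2.74 ± 0.25 from 16.7, 13.8 and 10.6 CPM to 67.6, 118 and 88.9 CPM (edgeR adjusted p = 0.00123), and by 1.61 ± 0.15 in control cells. FOSB (2.08 ± 0.49), KLF4 (1.80 ± 0.38) and the phosphatase DUSP5 (1.3 ± 0.30) rose. The nuclear receptor NR4A3 rose on 10 untreated and 46 treated reads, a ratio of 5.004 (2.491 to 11.12). KLF6 fell by 1.00 ± 0.19, and was not called without untreated replicate 2 or H2O2 replicate 2 or 3, and JUN stayed within 423 to 507 CPM in all 6 samples with a fold change of 0.08 ± 0.13. The count of 6 was 11 with the block, 13 without H2O2 replicate 1, 2 without untreated replicate 3 or H2O2 replicate 3 and 1 without untreated replicate 2 or H2O2 replicate 2. Tested between the lines, 0 of 27 were called by edgeR and DESeq2, and 5 had an unadjusted p under 0.05. The blocked fit called 7, each higher in the edited line. Of 15 inflammation genes 0 rose or fell in edgeR, an unadjusted p under 0.05 was found for 5 upward and 1 downward, DESeq2 called 1 in each direction and the block 6 up and 1 down, and 4 rose without H2O2 replicate 1. NFKB2 and LIF, the most counted, had fold changes of 0.71 ± 0.28 and 0.17 ± 0.13.

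Of 24 heat shock genes 2 rose and 2 fell (8.33% each), against 4.26% and 5.55% of all genes tested. So few calls do not describe the list as a whole. HSPA9 (1.11 ± 0.16), the mitochondrial chaperone, and HSPB8 (1.01 ± 0.15) rose, and HSPA1A (−1.17 ± 0.23) and HSPA1B (−0.81 ± 0.16) fell. HSPA1A went from 38.6, 39.2 and 37 CPM to 24.0, 12.9 and 14.2 CPM without overlap. HSPA1A and HSPA1B are near-identical, reads that mapped to both were not counted, and their fall was not called when any 1 of untreated replicates 2 and 3 and H2O2 replicates 2 and 3 was left out. Without H2O2 replicate 1, 4 of the 24 rose. In control cells 2 of the 24 rose and 0 fell, with 9 upward and 2 downward at an unadjusted p under 0.05. Edited cells had 5 in each direction at that p. For the difference between the lines edgeR called 0, DESeq2 1 and the blocked fit 4. In edgeR 4 had an unadjusted p under 0.05.

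Of 23 genes of the endoplasmic reticulum stress response 4 rose and 0 fell. XBP1, its transcription factor, ran at 58.2, 62.2 and 55.5 CPM and then at 116, 199 and 132 CPM, a rise of 1.34 ± 0.20 (edgeR adjusted p = 0.00649). HERPUD1 rose by 0.87 ± 0.17, DNAJB11, which overlaps TBCCD1, by 0.61 ± 0.13, and the chaperone HSPA5 (BiP) by 0.66 ± 0.16 from 1041, 918 and 848 CPM to 1450, 1706 and 1284 CPM. HSPA5 in control cells had a fold change of −0.31 ± 0.15, and 0 of the 23 rose and 1 fell there in edgeR, with 4 in each direction at an unadjusted p under 0.05 and a median of −0.13. The block called 1 of the 23 up in control cells. The edited count was 1 without untreated replicate 2 or 3 or H2O2 replicate 2. The blocked test between the lines called 9 of the 23, each higher in the edited line, and edgeR without the block called 0, with 7 at an unadjusted p under 0.05 and 1 called by DESeq2.

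Of 6 tested metallothionein genes 2, MT1F (1.64 ± 0.31) and MT1X (1.3 ± 0.19), rose, at 0.815 to 9.54 CPM and with near-identical copies that make the values uncertain. MT1X ran at 3.61, 3.34 and 3.40 CPM and then at 9.54, 7.46 and 8.61 CPM, without overlap. The block called 4, and 1 was called without untreated replicate 2 or untreated replicate 3.

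In the BCL2 family of death regulators 6 of 15 tested genes rose and 1 fell. Besides BBC3 and PMAIP1 these were the killers BAK1 (0.84 ± 0.18), HRK (0.79 ± 0.19) and BID (0.66) and the survival factor BCL2L1 (0.70 ± 0.18), which went from 237, 255 and 253 CPM to 293, 451 and 468 CPM. BMF fell by 1.31 ± 0.18, and the survival factor MCL1 stayed at 204 to 255 CPM with a fold change of 0.01 ± 0.13. The block called 7 up and 2 down. The count of 6 was 3 without untreated replicate 1 and 1 without untreated replicate 2 or 3 or H2O2 replicate 2 or 3.

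Of 20 targets of TGFβ and YAP 3 rose and 1 fell. The activin subunit INHBA rose by 1.64 ± 0.30 from 6.78, 4.58 and 3.77 CPM to 20.8, 15.7 and 10.7 CPM, and ANKRD1 rose by 1.11 ± 0.26. Thrombospondin THBS1, which overlaps FSIP1, fell by 1.3 ± 0.20 from 337, 291 and 259 CPM to 156, 94.3 and 110 CPM. The block and DESeq2 each called 2 down. The 3 rises were 0 without untreated replicate 2 and 1 without untreated replicate 3 or H2O2 replicate 2.

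Of 12 tested RPE markers 1 rose and 2 fell. MITF fell by 0.74 ± 0.19 from 152, 131 and 113 CPM to 100, 68.7 and 69.0 CPM (edgeR adjusted p = 0.0388), and the retinol acyltransferase LRAT by 0.78 ± 0.22. These 2 falls were not called when any 1 of untreated replicates 1 to 3 or of H2O2 replicates 2 and 3 was left out, and the block called 4. The chloride channel BEST1 had 16 untreated and 208 treated reads, a ratio of 14.14 (8.505 to 25.2). BEST1 overlaps FTH1 on the other strand, where FTH1 had 647 to 962 CPM in the edited samples, and the counting did not use strand. Of 6 tested markers of other cells PDGFRB fell, by 1.18 ± 0.29 from 361, 266 and 194 CPM to 172, 85.5 and 106 CPM, and it fell by 0.75 in control cells. It was not called without untreated replicate 1 or 2 or H2O2 replicate 2 or 3, and the block called 2 of the 6 down and 1 up.

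Outside the lists 1167 genes were called, and the largest changes among them are given here. SLC6A9, a glycine carrier that overlaps CCDC24, rose by 3.64 ± 0.23 from 2.88, 4.31 and 3.31 CPM to 34.9, 53.3 and 43.3 CPM (edgeR adjusted p = 0.000291), and by 3.93 ± 0.28 in control cells. KRT34, a hair keratin, rose by 2.89 ± 0.20 from 14.6, 13.9 and 13.5 CPM to 82.9, 134 and 93.9 CPM, against 1.59 ± 0.14 in control cells. GREB1, an oestrogen-responsive gene, had 13 untreated and 146 treated reads, a ratio of 12.22 (6.925 to 23.49), and PVRL4 (nectin-4) 20 and 155, a ratio of 8.431 (5.275 to 14.19).

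Among the falls, PIF1, a DNA helicase, went from 7.26, 14.7 and 15.9 CPM to 1.3, 0.554 and 2.13 CPM (−3.23 ± 0.45, edgeR adjusted p = 0.00537), against −0.42 ± 0.19 in control cells. MIR210HG, the host of the hypoxia-induced miR-210, fell by 2.88 ± 0.47 from 41.5, 32.2 and 34.5 CPM to 9.49, 1.96 and 3.32 CPM, and by 2.31 ± 0.23 in control cells. RIMKLA (−3.14 ± 0.51), PPFIA4 (−3.05 ± 0.36), SH3TC2 (−2.63 ± 0.38), FAM115C (−2.60 ± 0.28) and LOC643650 (−2.57 ± 0.33) fell in edited cells, and each was a DEG in control cells as well.

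**Figure D5:**
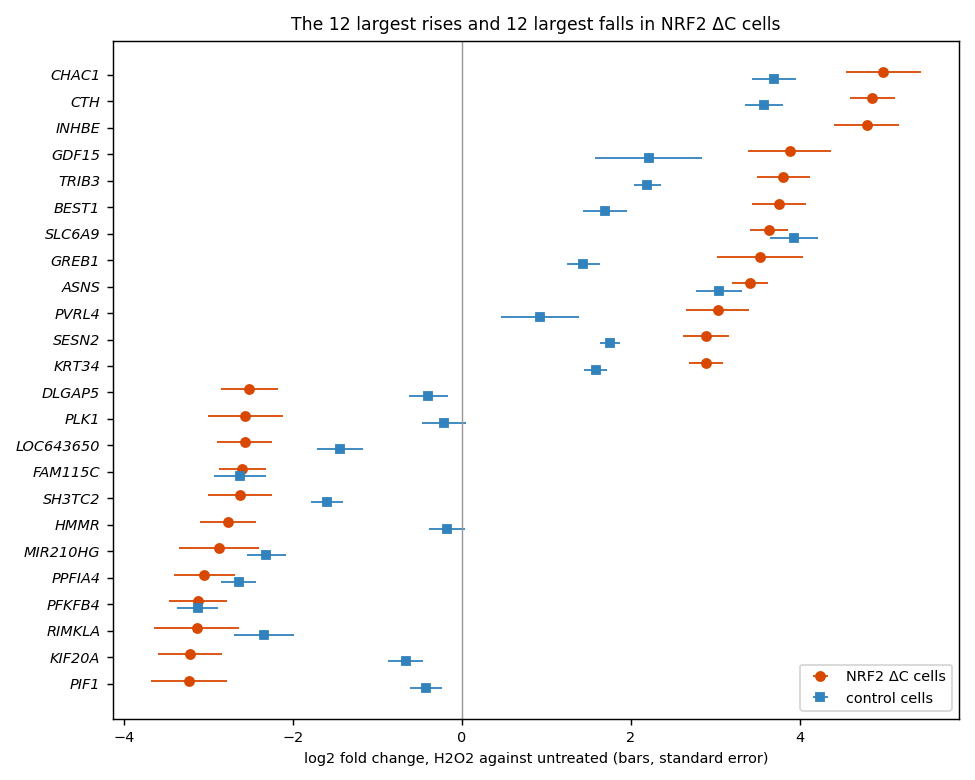
Log2 fold change with H2O2 (bars: standard error) of the 12 DEGs that rose most and the 12 that fell most in NRF2 ΔC cells, each beside its value in control cells. KIF20A, HMMR, PLK1, DLGAP5 and PIF1 fall by 2.52 or more in the edited line and by 0.67 or less in the control line, and INHBE has no control value.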

How the data were processed

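mRNA was sequenced from 18 samples (single-end, poly(A)-selected). The authors mapped reads to hg19 with TopHat2 2.1.0 and counted them per gene with HTSeq 0.11.2 without strand, leaving out multi-mapped reads and ribosomal RNA genes. What they deposited are raw counts for each gene symbol. In the 6 edited libraries 72.6 to 73.7% of reads were on genes, and the lines that name no gene were left out. Among these lines were reads ambiguous between genes, 0.955 to 1.179% of reads.

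Groups and replicate numbers came from the labels. Of 23411 symbols, 13543 were kept by filterByExpr and tested with edgeR 4.0.16 (R 4.3.3, TMM, quasi-likelihood, Benjamini-Hochberg). The difference between the lines was called on the adjusted p alone. DESeq2 1.42.0 was run as an alternative. CPM were computed here. Same-numbered samples correlated in their deviations from the group means over 13543 genes (r = 0.73, 0.41 and 0.519, other pairs −0.56 to 0.255), so the numbers pair the samples. The main fits do not use this pairing, and their errors and adjusted p include the spread between replicate numbers. For H2O2 against untreated in edited cells the common dispersion was 0.0347 in the main fit and 0.0083 with the block. The blocked fit left 2 residual degrees of freedom, against 4 in the main fit. Its errors rest mostly on the spread shared over all genes (prior degrees of freedom 108.71, against 5.08). What a number marks is not stated in the labels. The test was tried on simulated data beforehand.

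The members and the gene lists were chosen with earlier results of these data known. Named genes are NFE2L2, KEAP1, the 8 RT-qPCR targets, the 12 largest rises and 12 largest falls with at least 1 CPM on average and no overlap between groups, up to 5 called members of each list in each direction (or, with none called, the 2 most counted) and the genes called between the lines. Other members are named where their list is counted. A few members that this rule names are counted in their lists but not reported here by themselves. Coordinates are GRCh37, and promoter windows are RefSeq's of GRCh38.p14, matched for 447 of 558 list members. Only the first window of each list member was searched, whereas the shares of all windows count every window. A gene may enter those shares more than once, so the motif shares of lists and of all windows are not strictly alike. Counting intervals cover counting error only.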

Additional observations from a re-analysis of the deposited data

Results flagged for a closer look

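The 3 genes below were singled out because edgeR's test of the difference between the 2 lines called them (adjusted p = 0.0183 for each, 3 + 3 samples per line). That test leaves out the replicate pairing, and with the block within each line 967 genes were called. For DEPDC1 the change in NRF2 ΔC cells minus that in control cells was −2.20 ± 0.29 on the log2 scale, for SGOL2 it was −2.16 ± 0.27, and for INHBE it was 4.27 ± 0.52. In DEPDC1 and SGOL2 all treated edited samples lay below all untreated ones, while the control groups overlapped. INHBE rested on 2 reads in each untreated edited library and passed the filter on low counts through the treated edited samples.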

How the results depend on the processing

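The 1329 DEGs (577 up, 752 down) were 2538 with the replicate block (983 up, 1555 down), 637 at a fold limit of 1 (254 up, 383 down) and 275 to 2582 with 1 library left out (147 to 1096 up, 128 to 1486 down), and a fit of all 18 samples gave 919 up. DESeq2, other normalizations, filters and no fold limit gave 1291 to 1719. The 162 list members called were 70 to 206 with 1 library left out. The 3 genes called between the lines were 967 with the block within each line, 77 in DESeq2, 13 without a filter, 19 in the fit of all samples and 0 to 11 with 1 library left out. Of 1664 values for 111 genes under the alternatives 1458 kept their direction and call, 197 lost the call, 3 gained it and 6 changed sign, all near 0. With 1 library left out MGST1 ran from −0.059 to 0.24, PSMD2 from −0.059 to 0.26, FASN from −0.26 to 0.10 and ACLY from −0.0066 to 0.038, and ACLY had −0.010 under upper-quartile scaling. The difference between the lines for SLC7A11 ran from −0.25 to 0.22 with 1 library left out, above 0 in 4 of 12 cases. The median log2 fold change of all genes ran from −0.03 to 0.04 over the settings. The cause of these differences was not tested. Whether depth or the spread between 3 replicates limits most values was not tested either. Counting error adds to the spread for genes such as INHBE.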

Other observations

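Other genes of amino acid and one-carbon supply that are on none of the lists were named after their values were seen. PCK2, mitochondrial phosphoenolpyruvate carboxykinase, rose in NRF2 ΔC cells by 2.67 ± 0.23 from 19.2, 26.5 and 26.8 CPM to 111, 155 and 196 CPM (edgeR adjusted p = 0.00118), and by 1.89 in control cells. CBS, which makes the cystathionine that CTH cleaves, rose by 2.29 ± 0.33 from 14.7, 36.9 and 30.3 CPM to 94.9, 137 and 170 CPM, and the glycyl-tRNA synthetase GARS by 2.12 ± 0.18 from 141, 174 and 180 CPM to 571, 850 and 732 CPM. The secreted pattern receptor PTX3 rose by 2.44 ± 0.41 from 20.7, 33.2 and 31.7 CPM to 73.5, 256 and 136 CPM, with treated replicate 2 the highest. Follistatin FST, which binds activin, rose by 2.00 ± 0.54 from 2.73, 9.70 and 8.42 CPM to 10.4, 42.5 and 31 CPM.

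Further proliferation genes outside the mitosis list, also named after their values were seen, fell in the edited line. MKI67, the proliferation marker, fell by 2.04 ± 0.24 from 300, 374 and 423 CPM to 91.7, 60.7 and 114 CPM (edgeR adjusted p = 0.00298), with a fold change of −0.33 in control cells. The mitotic kinesin KIF14 fell by 2.37 ± 0.22 from 33.1, 32.7 and 39.8 CPM to 7.24, 4.74 and 8.48 CPM, with −0.15 in control cells, and the spindle orientation gene GPSM2 by 2.01 ± 0.27, with −0.11. The change in the edited line minus that in the control line was −1.69 ± 0.35 for MKI67, −2.19 ± 0.36 for KIF14 and −1.87 ± 0.35 for GPSM2 on the log2 scale. edgeR called none of these 3 differences over all genes, each had an unadjusted p under 0.05, and the blocked fit called each.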
